A study of Rattus norvegicus with 6 samples.

Results

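The CHG regions analysed here were the differentially methylated regions of the CHG context that lay in a promoter, an exon, an untranslated region, a transcription start site (TSS) or a transcription end site (TES), and that had no CpG island annotation. A CHG site is a cytosine followed by any base other than guanine and then by a guanine. Of the 9017 annotated CHG regions, 777 met this rule, out of 24862 annotated regions of all sequence contexts. The study compared hippocampal endothelial cells of adult male Sprague-Dawley rats kept undisturbed in their home cages (Ctrl, n = 3) with those of rats given 8 weeks of chronic unpredictable mild stress (CUMS, n = 3). No genetic change was given for either group. Cells were sorted as CD45-/CD31+, that is, without the leukocyte marker and with the endothelial adhesion molecule encoded by Pecam1. DNA was treated with TET2 and APOBEC3A, which leaves methylated cytosines readable as cytosine after sequencing. Each region carried 1 methylation level per group, averaged by the authors over its CHG cytosines. The values therefore have no error between rats, no read depth and no interval, and differences between the groups are given as sizes only. The identity of the sorted cells could not be checked, because a list of called regions holds no level for marker genes outside it.

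In mammals most DNA methylation sits at CG dinucleotides, where it is copied after replication by Dnmt1. Methylation outside CG is placed mainly by Dnmt3a and Dnmt3b, is abundant in neurons and embryonic stem cells, and is low in most other cell types. Promoter and first-exon CG methylation is commonly associated with transcriptional silencing. Here the CHG level averaged along gene bodies stood at 0.332% for CUMS and 0.314% for Ctrl. The listed regions are short stretches in which 1 of the groups stood well above that level.

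To show what CHG sites look like near a start site, the RefSeq sequence of the 250 bases before the start is printed for 3 genes with a region over the TSS: the pair with the highest call scores and the gene with the one region there that was lower in CUMS. The sequences are of the GRCr8 build, read 5′ to 3′ along the gene, and capitals mark CAG, CTG, CCG and CGG, which hold the CHG cytosines of both strands and may overlap within CCGG. Their positions are chr5:126489390-126489639 on the minus strand for Bsnd, chr10:16165916-16166165 on the minus strand for Nsg2 and chr10:83518814-83519063 on the plus strand for Rpl19. The differentially methylated regions themselves are given on mRatBN7.2, and their own sequence was not analysed here.
Bsnd: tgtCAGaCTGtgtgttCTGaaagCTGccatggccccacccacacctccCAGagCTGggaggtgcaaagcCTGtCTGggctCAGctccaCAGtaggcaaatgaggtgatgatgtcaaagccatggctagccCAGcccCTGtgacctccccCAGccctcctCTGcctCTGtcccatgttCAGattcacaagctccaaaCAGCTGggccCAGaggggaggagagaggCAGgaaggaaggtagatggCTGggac
Nsg2: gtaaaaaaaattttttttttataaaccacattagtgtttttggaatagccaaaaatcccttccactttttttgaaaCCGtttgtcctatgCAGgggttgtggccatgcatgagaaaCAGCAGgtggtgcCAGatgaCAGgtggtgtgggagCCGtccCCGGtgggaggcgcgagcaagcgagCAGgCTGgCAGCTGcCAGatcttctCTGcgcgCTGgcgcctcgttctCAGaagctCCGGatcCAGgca
Rpl19: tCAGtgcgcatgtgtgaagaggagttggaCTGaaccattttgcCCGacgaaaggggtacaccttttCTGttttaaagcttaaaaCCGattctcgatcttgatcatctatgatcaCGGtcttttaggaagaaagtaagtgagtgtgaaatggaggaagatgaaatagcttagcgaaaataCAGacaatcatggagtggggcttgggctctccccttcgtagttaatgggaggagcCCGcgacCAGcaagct
The Bsnd stretch held 42 CHG cytosines and no CG dinucleotide, the Nsg2 stretch 34 CHG cytosines and 11 CG dinucleotides, and the Rpl19 stretch 14 and 10. A CHG site was found in 99.96% of all 33469 RefSeq promoter stretches, with a median of 29 CHG cytosines (interquartile range 22 to 37) and 5 CG dinucleotides (2 to 15). The 171 genes with a promoter or TSS region had medians of 34 CHG cytosines (28 to 41) and 12 CG dinucleotides (4 to 19).

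CHG methylation was higher in CUMS in 526 of the 777 regions (67.7%), and lower in 251. The share over all annotated CHG regions was 68.6%. In the hypermethylated regions the median level was 4.26% in CUMS (interquartile range 3.50 to 5.30%) and 0.0687% in Ctrl. The hypomethylated regions were the mirror image, with a median of 3.98% in Ctrl (3.36 to 4.95%) and 0.0391% in CUMS. The lower group was under 0.5% in 748 regions (96.3%), against 95.7% of all annotated CHG regions. It was under 0.1% in 459, against 5850 of all 9017. Most regions were thus close to unmethylated in one group, as were most CHG regions of the whole list. The median difference was 4.10 percentage points upward and -3.83 points downward.

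**Figure D1:**
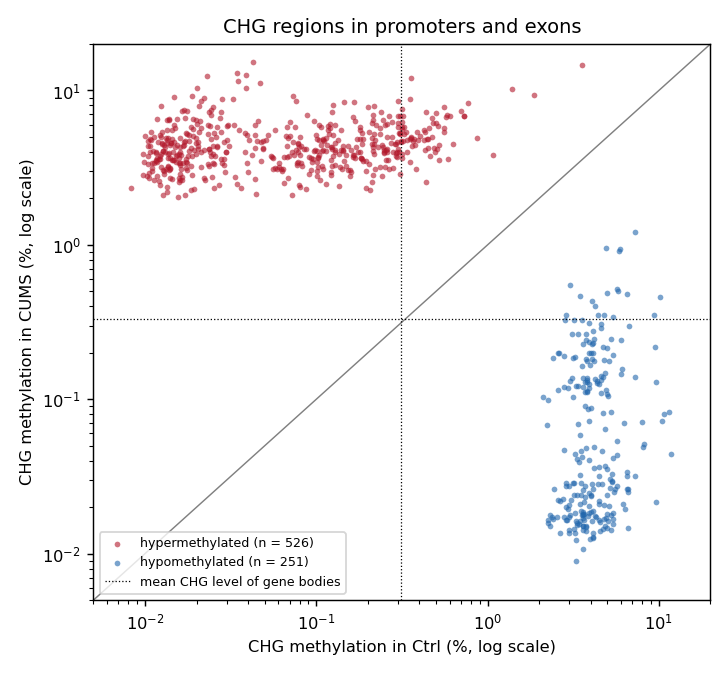
CHG methylation level of the 777 regions in Ctrl (x axis, %, log scale) and CUMS (y axis, %, log scale), 1 point per region, red where CUMS is higher (n = 526) and blue where it is lower (n = 251). The diagonal marks equal levels and the dotted lines the mean gene-body level of 0.314% in Ctrl and 0.332% in CUMS. The higher group lies between 2.03% and 15.3%, far above those lines.

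The size of the differences was small on the absolute scale. They ran from 2.01 to 15.2 percentage points. At least 5 points separated the groups in 200 regions (25.7%), against 28.0% of all annotated CHG regions, and at least 10 points in 14 regions (1.80%), against 3.11%. The authors' methods give a minimum difference that most listed regions do not reach. The smallest listed increase was at chr3:144508769-144508835, with 2.03% in CUMS and 0.0155% in Ctrl, and the smallest decrease at chr15:31669901-31669956, with 0.103% and 2.12%. Regions were short, with a median length of 108 bp (51 to 419 bp) and a median of 20 CHG cytosines (4 to 87). CHG regions that lay only in introns had medians of 98 bp and 17 cytosines, and intergenic ones 93 bp and 15 cytosines.

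Whether the direction differed from that of CHG regions elsewhere was tested by counting regions. Hypermethylated regions made up 70.3% of the 3069 intron-only CHG regions and 68.1% of the 4852 intergenic ones. The odds ratio against the intron-only regions was 0.883 (95% confidence interval 0.746 to 1.05, adjusted p = 0.323, two-sided Fisher's exact test with Benjamini-Hochberg adjustment over 2 comparisons). Against the intergenic regions it was 0.984 (0.837 to 1.16, adjusted p = 0.836, same exact test). Neither difference passed the threshold of 0.05, and regions of one genome are not independent, so a p-value of this kind speaks of the regions on the list rather than of the animals. With CpG island regions added to the promoter and exon set (1027 regions), the ratio against the intron-only regions was 0.833 (adjusted p = 0.0379, same exact test). The intron-only set still held no CpG island regions, so the change was made on one side only. Of all CHG regions in CpG islands, 62.1% were hypermethylated.

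Among the gene features, promoter regions were higher in CUMS in 216 of 311 cases (69.5%), exon regions in 355 of 517 (68.7%), 5′ untranslated regions in 46 of 62 (74.2%) and 3′ untranslated regions in 68 of 103 (66.0%). A region can carry several of these labels, and 371 of the 777 also touched an intron. Regions labelled both promoter and transcript feature were higher in CUMS in 45 of 53 cases (84.9%, 95% Wilson interval 72.9 to 92.1%). These labels can belong to different genes, as in the region of Acy1 (promoter) and Abhd14a (exon). Regions with only one of these labels were near the common share, with 171 of 258 for promoter alone and 310 of 466 for transcript feature alone. By CpG island context the shares were 70.5% in shores, the flanks next to islands, 59.0% in the more distant shelves and 67.7% in the open sea beyond. These features were not tested against each other. Hypermethylated regions outnumbered hypomethylated ones on each of the 20 autosomes, from 13 of 24 regions on chromosome 19 to 14 of 14 on chromosome 18, and in 39 of 55 regions on X.

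**Figure D2:**
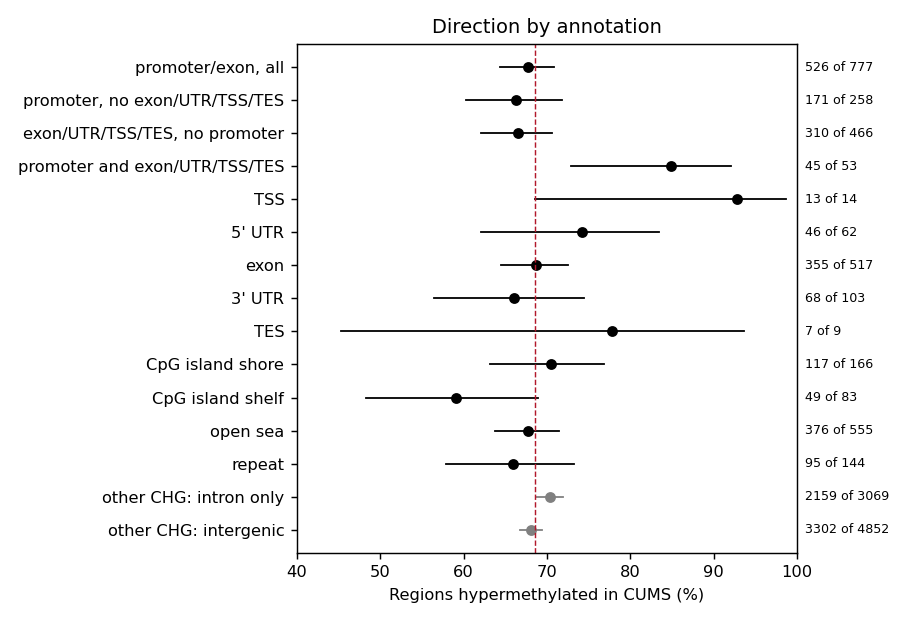
Share of CHG regions hypermethylated in CUMS (x axis, %, starting at 40%) for each annotation, with the counts on the right. Points are shares and bars 95% Wilson intervals, which cover counting error only. Black marks the promoter and exon regions, grey the other CHG regions, and the dashed line the 68.6% of all annotated CHG regions. Most points sit near that line, with TSS regions (13 of 14) and regions labelled both promoter and transcript feature (45 of 53) to its right. The 14 TSS regions are part of the 53.

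A repeat label was carried by 144 regions (18.5%), against 46.8% of intron-only and 67.8% of intergenic regions. Long terminal repeat elements were in 58 of them (36 higher in CUMS), short interspersed elements in 55 (35 higher) and long interspersed elements in 33 (25 higher). Among the regions named below, those of ENSRNOG00000063606, Acy1 with Abhd14a, Cacna1f, Rab11a, Trpm3, Cbs and Ccdc9 carried a repeat label, as did both of Csf1r. The label was also on the regions of AABR07011733.1, the U6 gene, the 5S_rRNA gene at chr12:4026527-4026779 and Sil1 at 4.95% in CUMS.

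Over the TSS itself there were 14 regions, 13 of them hypermethylated (92.9%, 95% Wilson interval 68.5 to 98.7%). All 14 are part of the 53 regions labelled both promoter and transcript feature. Bsnd, which encodes the barttin subunit of chloride channels of kidney and inner ear, carried 66 CHG cytosines at chr5:121260312-121260683, with 5.57% in CUMS and 0.0575% in Ctrl. Nsg2, which encodes a neuronal protein of endosomal vesicle traffic, had 8.39% in CUMS and 0.145% in Ctrl over 51 cytosines at chr10:15661328-15661601. The single hypomethylated one, named here after its value was seen, covered the start of Rpl19, a protein of the large ribosomal subunit, and lay in the promoter of Cacnb1, a beta subunit of voltage-gated calcium channels. It had 0.216% in CUMS and 4.96% in Ctrl at chr10:83019126-83019282. In the 5′ untranslated regions, Tmem63c, a calcium-permeable stress-gated cation channel, had 7.21% in CUMS and 0.123% in Ctrl. The opposite direction was seen in Fbxo6, a substrate receptor of ubiquitin ligases, with 0.0150% and 4.83%. It was also seen in Clk3, a kinase of splicing factors, with 0.135% and 4.21%. RGD1566007, matched by the annotation to a putative sperm motility kinase, likewise had 0.0154% and 3.34%.

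The regions with the highest call score, a sum over cytosines that favours long regions, were mostly exonic, as were 517 of all 777 regions. Bsn, which encodes the presynaptic scaffold bassoon, had the most cytosines of all, 87 at chr8:108793179-108793470, with 5.25% in CUMS and 0.119% in Ctrl. A keratin-associated protein gene, ENSRNOG00000032530 at chr20:10881028-10881284, had 5.57% and 0.423%. Aifm3, a mitochondrial apoptosis-inducing factor, carried 2 regions, with 5.05% and 0.0667% in an exon at chr11:83509469-83509887 and 4.91% and 0.358% at its 5′ untranslated exon. Ccdc9, a coiled-coil protein gene, had 4.35% and 0.153% over an exon and 3′ untranslated region. The promoter region of AABR07011733.1 had 4.70% and 0.111%, and lay in a repeat.

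The 8 hypomethylated regions of highest score lay in genes of varied kinds. Akt1, a kinase central to survival and growth signalling, had 0.0179% in CUMS and 5.29% in Ctrl in its promoter at chr6:131732787-131733035. Rab11a, a small GTPase of recycling endosomes, had 0.0805% and 10.8% in its promoter at chr8:65239292-65239515, and its effector Rab11fip4 had 0.156% and 6.08% in an exon at chr10:64578829-64579025. Swap70, which binds actin and phosphoinositides, had 0.122% and 3.29%, and Nwd1, a NACHT and WD repeat protein, had 0.246% and 5.27%, both in exons. A second keratin-associated gene, AABR07044583.1, had 0.0288% and 2.87% at chr20:10799511-10799740. A 5S_rRNA gene had 0.218% and 9.43% over its exon and end site at chr12:4026527-4026779. The 2 keratin-associated genes thus went opposite ways on the same chromosome, and such families have near-identical copies to which reads can be hard to assign.

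**Figure D3:**
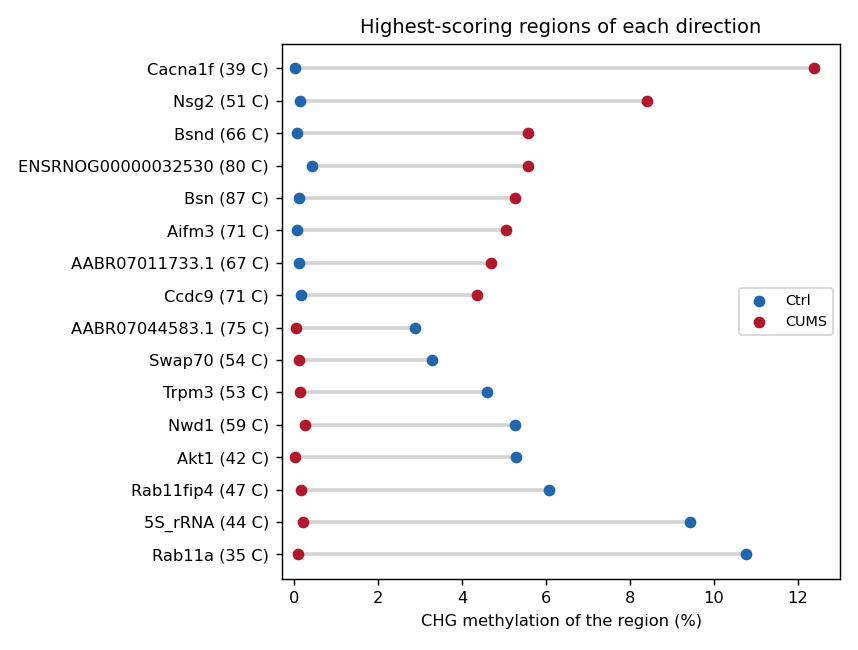
CHG methylation level (x axis, %) in Ctrl (blue) and CUMS (red) of the 8 hypermethylated and 8 hypomethylated regions with the highest call score, with the gene and the number of CHG cytosines (C) on the y axis. The grey line joins the 2 group levels of a region. The lower group is under 0.5% in each of the 16, as in 95.7% of all annotated CHG regions. Cacna1f and Rab11a have the widest gaps.

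Beside Cacna1f and Rab11a, 6 regions made up the 4 widest differences in points of each direction. The promoter of ENSRNOG00000063606 at chr9:105976035-105976098 had 15.3% in CUMS and 0.0427% in Ctrl over 12 cytosines. Trim2, a ubiquitin ligase gene expressed in brain, had 13.0% and 0.0346% over 11 cytosines at its 5′ untranslated exon. The region shared by the promoter of Acy1, an aminoacylase gene, and an exon of Abhd14a had 12.5% and 0.0386% at chr8:107079473-107079697. Among the opposite cases a U6 spliceosomal RNA gene had 0.0445% in CUMS and 11.7% in Ctrl, another 5S_rRNA gene 0.0826% and 11.4%, and the class I histocompatibility gene RT1-CE14 0.0724% and 10.5%. All 3 belong to families with many similar copies, so their placement is uncertain. The regions of ENSRNOG00000063606, Acy1 with Abhd14a and the U6 gene carried a repeat label, as did those of Cacna1f and Rab11a. Copies of U6 carried 10 regions, of which 6 were hypermethylated, and copies of 5S_rRNA carried 4, of which 1 was.

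Voltage-gated calcium channels let calcium enter the cell on depolarization, and the alpha subunit forms the pore. Of 75 genes of calcium channels, stores and pumps, 7 carried a region (9.33%), against 2.62% of the 23154 RefSeq protein-coding genes. Here and in the lists below, such shares were not tested and take no account of gene length or number of exons. Of the 7 regions 4 were hypermethylated, against 68.6% of all annotated CHG regions. Cacna1f, the pore subunit of a retinal L-type channel, had 12.4% in CUMS and 0.0230% in Ctrl over 39 cytosines in an exon at chrX:14871575-14871895. Cacna1c, which encodes the L-type pore subunit Cav1.2 that the study followed, had 6.13% in CUMS and 0.301% in Ctrl over 34 cytosines in an exon at chr4:151792918-151793096. Trpm3, a calcium-permeable channel of the TRP family, went the other way, with 0.142% and 4.58% over an exon and 3′ untranslated region. Of 9 genes assayed singly by PCR or immunoblot, Cacna1c was the one with a region. The paper reported hypomethylated sites in an intron of Cacna1c. The CHG region given here carried exon and intron labels and was higher in CUMS, the opposite direction. Whether it bears on the paper's sites was not tested.

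Basement membrane and matrix genes build and remodel the sheet on which endothelial cells rest. Of 115 such genes, 13 carried a region (11.3%, against 2.62% of all protein-coding genes), with a median difference of 4.29 points. Of the 13 regions 9 were hypermethylated and 4 hypomethylated, close to the 68.6% hypermethylated among all CHG regions. Adamts18, a secreted metalloprotease, had 8.38% in CUMS and 0.165% in Ctrl. Col5a1, a chain of fibrillar collagen V, had 4.56% and 0.272%. Mmp2, which degrades collagen IV, had 0.184% and 3.17%. All 3 regions were exonic, and the list held both directions.

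Of 28 endothelial junction genes, 2 carried a region (7.14%, against 2.62% of all protein-coding genes), both in the direction of 68.6% of all CHG regions, hypermethylation. Pecam1, which encodes the CD31 used for sorting, had 5.95% in CUMS and 0.253% in Ctrl in an exon at chr10:91607261-91607488. Pard6a, a polarity protein of junctions, had 3.37% and 0.0161%. None of the 49 genes of endothelial identity and blood-brain barrier transport, none of 29 genes of DNA methylation and demethylation and none of 23 genes of the glucocorticoid and stress axis carried one, which for lists of this size is near the 2.62% of all protein-coding genes. In one-carbon and homocysteine metabolism, 1 of 39 genes did (2.56%), also near that share. This was Cbs, the enzyme that condenses homocysteine with serine, with 5.54% in CUMS and 0.117% in Ctrl in its promoter at chr20:9733189-9733305. Of 160 genes of focal adhesion and the actin cytoskeleton, 4 carried a region (2.50%, near the 2.62% of all genes), 3 of them hypomethylated. Among them, the actin crosslinker Flna had 0.0240% in CUMS and 3.51% in Ctrl in an exon.

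Markers of other brain cells were checked as a list of 31 genes for neurons, glia, microglia and mural cells, of which 2 (6.45%, against 2.62% of all protein-coding genes) carried 3 regions. All 3 were hypermethylated, as were 68.6% of all CHG regions. Csf1r, the receptor that sustains microglia, had 8.58% in CUMS and 0.0757% in Ctrl at chr18:54565627-54565695 and 8.53% and 0.301% at chr18:54566591-54566778, both in its promoter. Gad2, which makes GABA in interneurons, had 4.14% and 0.128% in its promoter. How far the share of other cells in each sort bears on any of these levels was not tested.

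The remaining lists were families of regulatory and adhesion genes, of which 1.47% to 4.00% carried a region, against 2.62% of all protein-coding genes. Developmental transcription factors carried 4 regions among 160 genes (2.50%), with Hoxb6 at 7.91% in CUMS and 0.0124% in Ctrl, Tbx4 at 6.80% and 0.602%, and Sox14 at 0.0320% and 6.54%, all in promoters. Zinc finger genes carried 6 regions among 408 genes (1.47%), 5 of them hypermethylated. Zfp36l3 had 5.98% and 0.0235%, Zfp385b had 4.62% and 0.0735%, and Zfp64 had 0.263% and 3.10%. Protocadherins, neuronal adhesion molecules encoded in clusters, carried 2 regions among 50 genes (4.00%), with Pcdhga7 at 6.70% and 0.574% and Pcdhb22 at 2.65% and 0.0144%.

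The rule left the other non-CG context, CHH, unused, where a cytosine is followed by 2 bases that are not guanine. Of the 777 regions, 589 (75.8%) overlapped a CHH region of the full list of 160692 regions by at least 1 bp. In all 589 pairs the CHG and the CHH region had the same direction, as in 99.7% of intron-only and 99.9% of intergenic pairs. The level in the higher group was 1.21 times as high in CHG as in CHH (median, interquartile range 1.04 to 1.41). That median was 1.22 in intron-only and 1.21 in intergenic pairs, so neither trait is particular to promoters and exons. The overlap was 77.0% for hypermethylated and 73.3% for hypomethylated regions, and was 71.6% in intron-only and 64.8% in intergenic CHG regions, which were shorter. The 2 contexts lie interleaved on the same DNA molecules and were read by the same chemistry, so a pair is not a second measurement. Only 70 regions (9.01%) overlapped a CHH region of the reduced list that the authors annotated, near the 9.29% of intron-only and 7.75% of intergenic regions.

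**Figure D4:**
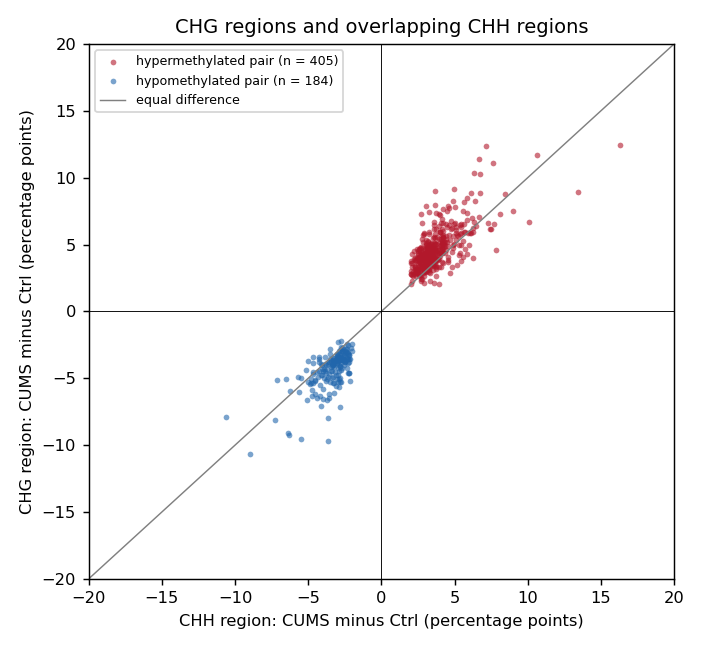
Difference of CUMS minus Ctrl (percentage points) in a CHG region (y axis) and in the CHH region that overlaps it (x axis), 1 point per pair, red where the CHG region is hypermethylated (n = 405) and blue where it is hypomethylated (n = 184). The diagonal marks equal differences. No pair falls in the quadrants of opposite direction.

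The overlap with CHH moved with the number of CHG cytosines in a region. It was 57.0% of the 79 regions with fewer than 10 cytosines, 72.2% of the 295 with 10 to 19, 79.7% of the 232 with 20 to 29 and 85.4% of the 171 with 30 or more. The median size of the difference moved less, from 3.69 points in the first of these classes to 4.31 in the last. Hypermethylated regions made up 59.5%, 67.5%, 72.0% and 66.1% of the 4 classes. The 188 regions without a CHH partner had a median length of 83.5 bp and the 589 with one 116 bp.

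Overlap with the CG context was found in 7 regions (0.901%), a share that was 7.01% with CpG island regions kept. All 7 were hypermethylated, as were 68.6% of all annotated CHG regions. In each of them CG methylation was also higher in CUMS, as in 80.0% of all annotated CG regions. Procr, the endothelial receptor of protein C, had 3.21% CHG methylation in CUMS and 0.0137% in Ctrl in an exon at chr3:144256718-144256839. The CG region over it had 50.1% and 29.8%. Over the promoter shared by Pdcd10, whose loss causes cavernous malformations of brain vessels, and Serpini1, which encodes neuroserpin, CHG methylation was 5.68% and 0.0212% and CG methylation 16.1% and 5.29%. At the Nsg2 start the CG levels were 13.5% and 2.73%. Sptbn4, a spectrin of the axon initial segment, had CG levels of 37.1% and 20.1% and Tdh, a threonine dehydrogenase gene, 11.7% and 3.09%. In both contexts the difference had one sign, while CG levels in Ctrl ran from 2.73% at Nsg2 to 29.8% at Procr. Intron-only CHG regions overlapped a CG region in 2 cases (0.0652%), neither with the same direction. Intergenic ones did so in 14 (0.289%), of which 10 had the same direction.

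The 777 regions fell on 806 gene identifiers, with 731 regions assigned to 1 gene and 46 to several. Multiple regions in one gene were uncommon, with 22 genes carrying at least 2. In 11 of these the regions had one direction and in the other 11 both. Aldh4a1, a mitochondrial dehydrogenase of proline breakdown, had 3 hypermethylated regions with 5.54%, 3.86% and 3.40% in CUMS, although the annotation describes the same identifier as a taste receptor, so its gene is uncertain. Sil1, a nucleotide exchange factor of the endoplasmic reticulum, had 2 hypermethylated promoter regions, with 4.95% and 2.81% in CUMS. Sdk1, an adhesion molecule, had 2 hypomethylated exon regions, with 3.60% and 5.09% in Ctrl. Opposite directions within one gene were seen in Tmem86b, with 4.37% in CUMS and 0.0250% in Ctrl at chr1:69220068-69220223 and 0.458% and 10.2% at chr1:69218766-69218968. Ints1, a subunit of the Integrator complex, likewise had 2.38% and 0.0134% in one exon region and 0.0419% and 5.38% in another.

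The same genes also carried further regions outside this set. In 165 of them there were 209 CG regions, of which 190 were hypermethylated (90.9%, against 80.0% of all 5849 annotated CG regions). In 189 of them there were 262 annotated CHH regions, of which 196 were (74.8%, against 78.5% of all 9996). The 165 other CHG regions, in 120 of them, were hypermethylated in 112 cases (67.9%), near the 68.6% of all annotated CHG regions. These shares were not tested, and those over all regions include intergenic ones.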

How the data were processed

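Enzymatically converted DNA of hippocampal endothelial cells sorted from 3 Ctrl and 3 CUMS rats was sequenced. Per the labels and methods, reads were trimmed with fastp 0.20.0, checked with FastQC 0.11.3 and aligned to mRatBN7.2 (rn7) with Bismark 0.16.3 and Bowtie2, and regions were called with DSS. A cytosine that escapes deamination is read as methylated, which matters most at levels as low as these. The authors spiked in unmethylated lambda DNA as a negative control, but the paper gives no conversion rate from it. The deposited methylation levels are fractions, 1 mean per region and group over all replicates, printed here as percent, with no counts or coverage, so depth per value is unknown and no replicate error can be had. The stated minimum difference of the methods is not met by most listed regions. The deposited difference and score columns (the sum of DSS statistics over a region) hold the authors' own comparison. The score was used to rank regions only, and neither column is printed.

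Rows were joined by chromosome, start, end and context, and coordinates are 1-based. Direction is the sign of CUMS minus Ctrl. Shares carry Wilson intervals, and direction was compared by Fisher's exact test with Benjamini-Hochberg adjustment (Python 3.11.15, pandas 2.3.3, SciPy 1.17.1, statsmodels 0.14.6, matplotlib 3.10.9), tested on simulated data. Overlap needed 1 bp. Gene lists were matched by symbol, and 607 of 806 identifiers matched the RefSeq table (GRCr8), used for names, counts of genes and promoter sequences only. Of 9020 CHG regions, 3 had no annotation. The text names the 8 regions per direction with the highest score, the 4 with the largest difference, the 6 genes with most regions, up to 3 regions per list, 3 per direction at the TSS or 5′ untranslated region, up to 5 that overlap a CG region, and Cacna1c with the genes assayed singly by PCR or immunoblot. The regions and lists were chosen with earlier results of these data known. Alternatives changed the minimum difference, length, number of cytosines, features, chromosomes, merging and overlap rule. A pair of regions that this naming rule selects is not reported here.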

Additional observations from a re-analysis of the deposited data

How the results depend on the processing

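Over 7 results, 75 recomputed values were compared with those reported, and 55 counted as unchanged. Odds ratios had to keep their direction and side of the threshold, shares to stay within the interval and levels within a factor of 1.5. By that rule the CUMS level of hypermethylated regions counted as unchanged with a minimum of 5 points, at 6.28% against 4.26%. With a minimum difference of 5 points the hypermethylated share was 73.0%, the odds ratio 1.15 against intron-only and 1.21 against intergenic regions, the Ctrl level of hypomethylated regions 6.06% and the CHH overlap 89.0%. With 10 points, which left 14 regions, these were 71.4%, 1.72, 1.37, 11.1% and 57.1%, the CUMS level of hypermethylated regions was 12.2%, and the CG overlap 0%. Levels rise under such a minimum by construction, and the cause of the other shifts was not tested. The odds ratio against intergenic regions also crossed 1 with promoter regions only (1.07), exon and untranslated regions only (1.02), intron-annotated regions left out (1.02) and repeats left out (1.00), always within adjusted p-values of 0.304 to 1. Keeping CpG island regions on the promoter and exon side only gave 0.833 against intron-only regions. Its adjusted p was 0.0379 by Fisher's exact test (range over alternatives 0.0379 to 0.907). The CG overlap with those regions kept was 7.01%. A length of at least 100 bp gave a CHH overlap of 85.5%, and the reduced list 9.01%. The hypermethylated share stayed between 66.4% and 73.0%.

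No paired analysis was possible because each region has a single level per group. For the same reason leaving out each replicate was not run. Without read counts, a level near 0 in the lower group cannot be told from one that is merely undetected at the depth of that region.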

Other observations

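One further gene was looked up after its value was seen. Csf1, which encodes a ligand of the Csf1r receptor, carried a region over its TSS at chr2:195411664-195411862 with 43 CHG cytosines, with 4.00% CHG methylation in CUMS and 0.297% in Ctrl. Ligand and receptor gene were thus both hypermethylated in CUMS, as were 526 of the 777 regions.

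Among the matrix genes, an exon of Col17a1, a transmembrane collagen gene, had 0.349% in CUMS and 9.42% in Ctrl, the widest difference of the 13 regions in that list. Col18a1, which encodes a vascular basement membrane collagen, had 5.02% and 0.356% in its promoter. Both were chosen after their values were seen.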
